A study of Homo sapiens with 6 samples.

Results

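Interferon-stimulated genes (ISGs) were followed in a clear cell sarcoma line in which the EWSR1::ATF1 fusion (EA1) was knocked down. The list held 49 gene symbols, taken for their known function and chosen with earlier results of these data known. The rule was that every listed symbol in the counts table is a member. Of the 49, 47 were in the table, which holds 18118 genes in all, and 43 passed the filter on low counts, out of 14571 genes tested. IRF1, DDX58, OASL and IFITM1 were in the table but had too few counts to pass that filter, and the levels of IFITM2 and CXCL10 were not analysed here.

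The 6 RNA-seq libraries came from SU-CCS-1, a human clear cell sarcoma cell line that carries EA1. There were 2 libraries from cells transfected with a scramble control siRNA, 2 from cells given EA1 siRNA 1 and 2 from cells given EA1 siRNA 2. All 6 therefore came from transfected, fusion-bearing cells of 1 line, and no source used here says whether the libraries of a group were separate cultures, so the p values measure the spread between libraries. The comparisons ask how each ISG changed with each EA1 siRNA, and every fold change is given as knockdown minus control.

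Interferons are secreted proteins released by cells that sense foreign or misplaced nucleic acid. They bind receptors at the cell surface, JAK kinases then phosphorylate STAT proteins, among them STAT2, which with IRF9 is part of the ISGF3 complex, which binds the interferon-stimulated response element (ISRE) in ISG promoters. Many ISG products block viruses by degrading RNA, stopping translation or changing membranes, and others pass the signal on or shut it down. Some tumor cells keep part of this program active without any added interferon.

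The ISRE is the sequence that most ISG promoters share, so the promoters were read first. RefSeq windows on GRCh38.p14, from 250 bases before to 50 bases after each annotated start site, were present for 38 of the 49 members, with 51 windows in all because some genes have several start sites. The search looked for GAAA, any pair of bases, then GAAA again, on both strands. Matches were present in 25 of the 38 members (65.8%), against 4.38% of the 27305 genes in the RefSeq set. The gamma-activated site TTCNNNGAA, bound by STAT dimers, was present in 9 of the 38 (23.7%) and in 9.38% of all genes. The cAMP response element TGACGTCA, the full site of ATF1 and its relatives, was in 0 of the 38 and in 2.25% of all genes, and TGACG, the shorter form contained in it, was in 7 of the 38 (18.4%) against 28.4%, each read on both strands. A match is only a match of letters in this window, and a missing match says nothing about binding.

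OAS3, IFI44L, ISG15 and DTX3L had lower levels with EA1 knockdown and STAT2 a higher level. The promoters of these 5 members are printed as examples of separate, repeated, overlapping, shared and missing matches. Each runs 5′ to 3′ on the strand of its gene, from 250 bases upstream to the first 10 transcribed bases, with ISRE matches in capitals.
OAS3, chr12:112938224-112938483, plus strand: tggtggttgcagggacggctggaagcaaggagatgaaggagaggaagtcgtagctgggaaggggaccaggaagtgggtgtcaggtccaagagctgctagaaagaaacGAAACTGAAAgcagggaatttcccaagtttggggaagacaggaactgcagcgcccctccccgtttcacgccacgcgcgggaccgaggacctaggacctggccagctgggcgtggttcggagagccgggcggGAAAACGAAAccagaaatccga
IFI44L, chr1:78620198-78620457, plus strand: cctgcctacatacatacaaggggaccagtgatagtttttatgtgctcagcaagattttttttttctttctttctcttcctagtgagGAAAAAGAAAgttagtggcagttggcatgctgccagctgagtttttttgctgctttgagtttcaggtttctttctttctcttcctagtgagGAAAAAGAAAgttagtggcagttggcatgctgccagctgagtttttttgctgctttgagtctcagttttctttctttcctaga
ISG15, chr1:1013247-1013506, plus strand: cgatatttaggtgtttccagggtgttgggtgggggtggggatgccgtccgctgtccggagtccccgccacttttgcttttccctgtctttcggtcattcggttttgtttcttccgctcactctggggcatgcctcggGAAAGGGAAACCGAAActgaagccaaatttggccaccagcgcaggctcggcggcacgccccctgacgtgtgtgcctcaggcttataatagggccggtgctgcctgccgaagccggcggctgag
DTX3L, chr3:122564088-122564347, plus strand: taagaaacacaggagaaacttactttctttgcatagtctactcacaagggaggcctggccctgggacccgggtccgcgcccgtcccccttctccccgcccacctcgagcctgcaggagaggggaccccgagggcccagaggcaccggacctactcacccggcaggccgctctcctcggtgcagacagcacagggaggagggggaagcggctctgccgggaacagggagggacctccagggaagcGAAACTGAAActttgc
STAT2, chr12:56360098-56360357, minus strand: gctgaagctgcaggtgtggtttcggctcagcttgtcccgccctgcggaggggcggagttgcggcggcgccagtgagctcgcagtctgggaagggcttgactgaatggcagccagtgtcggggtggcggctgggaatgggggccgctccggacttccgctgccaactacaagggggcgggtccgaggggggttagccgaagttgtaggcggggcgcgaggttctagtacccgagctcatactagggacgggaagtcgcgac
OAS3 had matches 143 and 12 bases upstream of the start site. IFI44L had a match in each copy of an exact repeat of 85 bases, and in ISG15 a pair of overlapping matches formed 1 continuous run. The DTX3L match crossed the start site. The same bases lay in the window of PARP9, which is transcribed the other way from a start site 38 bases distant, and the windows of these genes shared 137 bases. STAT2 had no match.

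Shorter stretches, with 20 bases kept on each side of the matches where the window allowed, show the same element in members that went different ways: IFIT1, ISG20, EIF2AK2 and PARP14 fell, GBP1 rose and SAMD9 was not called.
IFIT1, chr10:89392487-89392549, plus strand: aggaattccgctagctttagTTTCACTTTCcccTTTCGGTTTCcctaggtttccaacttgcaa
ISG20, chr15:88638927-88638976, plus strand: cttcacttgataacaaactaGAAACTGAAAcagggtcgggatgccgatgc
EIF2AK2, chr2:37156971-37157006, minus strand: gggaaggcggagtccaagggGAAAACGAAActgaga
PARP14, chr3:122680790-122680839, plus strand: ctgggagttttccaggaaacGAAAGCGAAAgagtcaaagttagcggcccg
GBP1, chr1:89065306-89065355, minus strand: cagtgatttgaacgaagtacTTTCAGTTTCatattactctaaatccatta
SAMD9, chr7:93118086-93118135, minus strand: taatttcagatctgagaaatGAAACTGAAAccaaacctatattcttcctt
In IFIT1 and GBP1 the element reads on the strand opposite to the gene, so that its complement appears in capitals. By outcome, ISRE matches were present in 13 of 16 members with a window that were called lower with each EA1 siRNA (81.2%), in 5 of 8 called lower with 1 of them (62.5%), and in 4 of 7 called with neither (57.1%). Of the members called higher with each EA1 siRNA, 1 of 2 had a match. These counts are descriptions of a chosen list and were not tested.

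**Figure D1:**
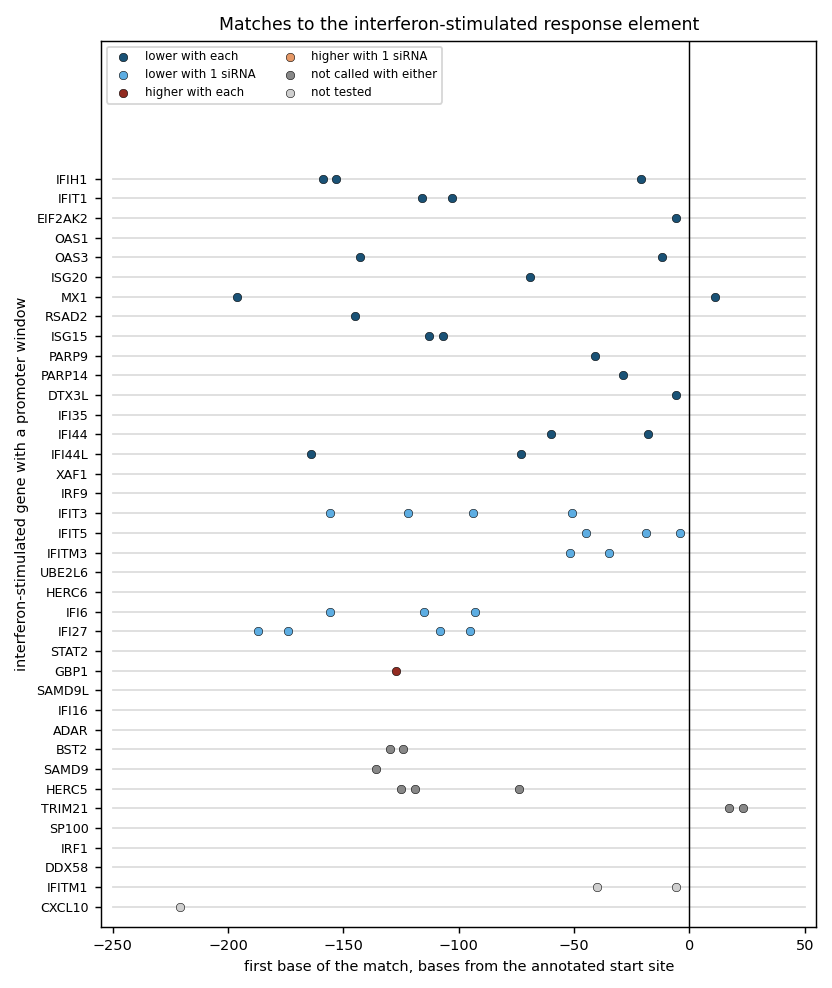
Positions of ISRE matches in the 38 members with a promoter window. The x axis gives the first base of each match in bases from the annotated start site (vertical line), each row is a gene with matches from all its windows, and the color gives the call with EA1 knockdown. Most matches lay upstream of the start site, in genes called lower and in genes not called. Among the empty rows were STAT2 and SAMD9L, which were called higher, and OAS1, IFI35 and XAF1, which were called lower with each EA1 siRNA.

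ISGs as a set were lower after EA1 knockdown. The list was chosen with earlier results of these data known, so its shares describe it and are not independent evidence of a direction. With EA1 siRNA 1, 22 of 43 tested members were called lower (51.2%) and 3 higher (6.98%), where 20.3% of all genes tested were called lower and 19.9% higher. With EA1 siRNA 2, 28 were called lower (65.1%) and 3 higher (6.98%), where 18.2% of all genes were called lower and 18.5% higher. Called means an adjusted p under 0.05 in the edgeR quasi-likelihood test, adjusted over all 14571 genes. The median log2FC of the 43 members was -0.58 for EA1 siRNA 1, beside 0.024 for all genes, and -0.79 for EA1 siRNA 2, beside 0. Both comparisons used the same 2 control libraries, so they are not independent of each other.

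Of the 43, 21 members were called lower with each EA1 siRNA (48.8%), against 15.1% of all genes, and 2 were called higher with each, STAT2 and GBP1 (4.65%), against 14.8%. Another 10 were called with neither. In 28 members all 4 knockdown libraries lay below both controls (65.1%), which was so for 27.3% of all genes, and in 3 members, STAT2, GBP1 and GBP2, all 4 lay above both (6.98%), against 28.1%. The summed level of the 47 members was 2545 and 2363 CPM (counts scaled to library size) in control, 1873 and 1765 CPM with EA1 siRNA 1, and 1698 and 1740 CPM with EA1 siRNA 2. In bulk RNA, fewer expressing cells and less RNA per cell cannot be told apart.

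**Figure D2:**
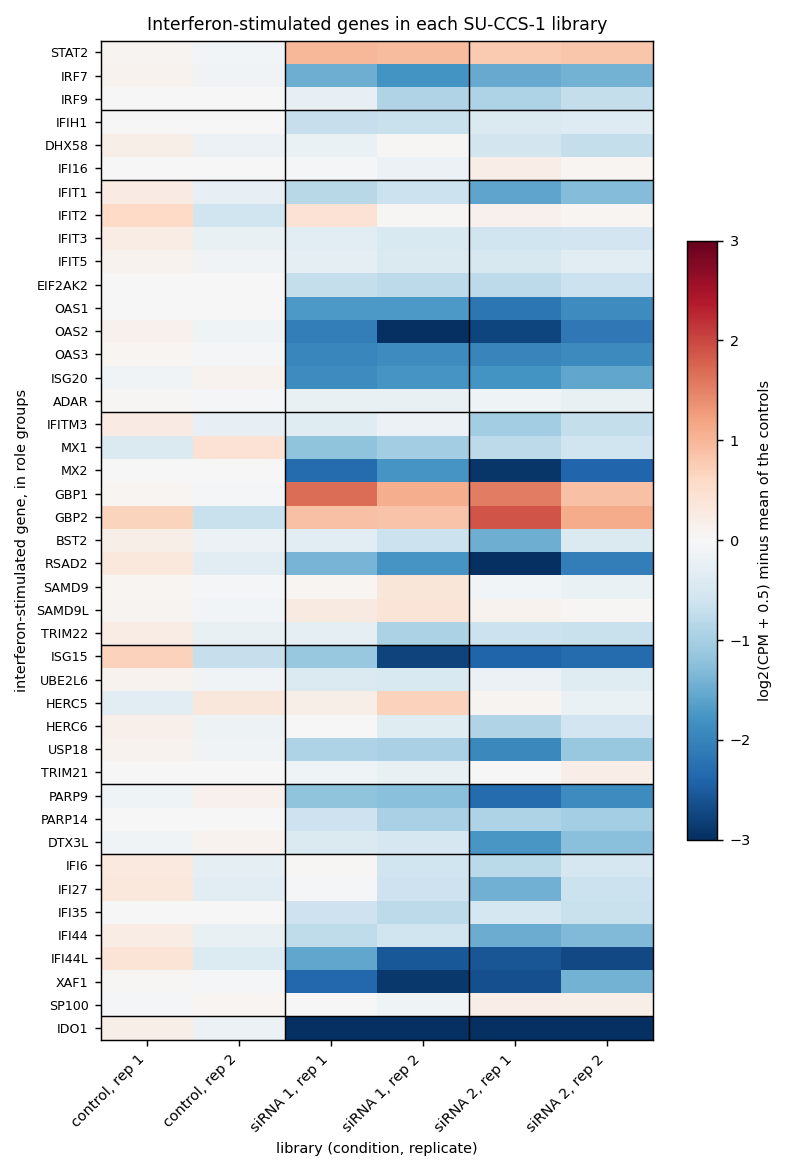
Level of the 43 tested ISGs in each library, as log2(CPM + 0.5) minus the mean of the 2 control libraries, with colors capped at 3 in either direction. Columns are libraries, rows are genes and horizontal lines part the role groups. Most rows are blue in all 4 knockdown columns, among them deeply blue OAS1, OAS2, OAS3, MX2, IFI44L, XAF1 and IDO1, whereas STAT2, GBP1 and GBP2 are red.

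**Figure D3:**
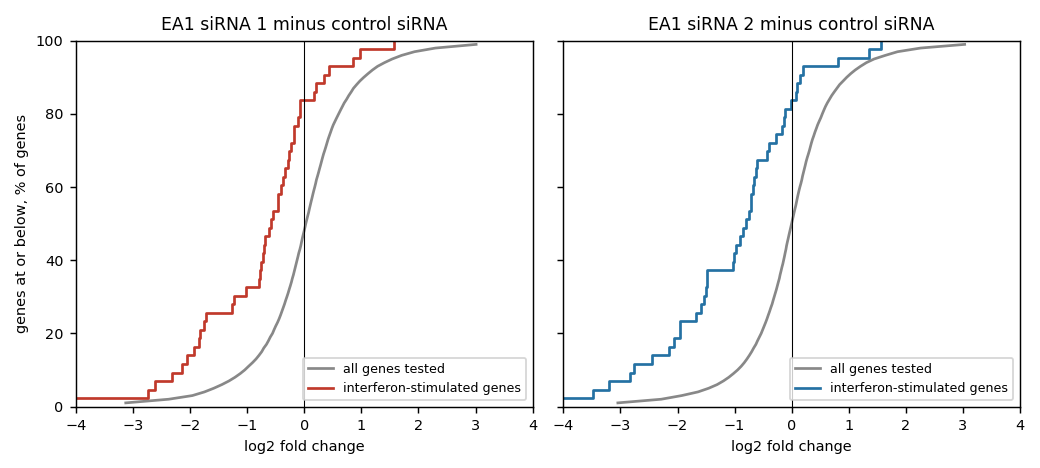
Cumulative share of genes (y axis, %) at or below each log2FC (x axis), for the 43 ISGs (colored steps) and all 14571 genes tested (grey, 1st to 99th percentile), with EA1 siRNA 1 on the left and EA1 siRNA 2 on the right. The ISG curves lie left of the grey curves over most of their range, with medians of -0.58 and -0.79.

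The libraries held between 5942808 and 7599305 counts each, so that 3 counts, taken as the floor, correspond to 0.386 to 0.534 CPM. The ATF1 row takes reads from the normal gene and from the part retained in the fusion, so their losses cannot be told apart. ATF1 fell from 82.2 and 87.4 CPM in control to between 20.3 and 22.3 CPM in all 4 knockdown libraries. Its edgeR log2FC was -2.03 (SE 0.13) with EA1 siRNA 1 and -1.94 (SE 0.13) with EA1 siRNA 2. Of 10 clear cell sarcoma markers, 10 were in the table, with a summed level of 2999 to 3192 CPM in control, 8747 to 8778 CPM with EA1 siRNA 1 and 7715 to 12250 CPM with EA1 siRNA 2, and 8 of them rose with EA1 siRNA 1 and 7 with EA1 siRNA 2, where 19.9% and 18.5% of all genes did, while MC1R fell with EA1 siRNA 1 (log2FC -1.87, edgeR adjusted p = 0.0330). Other genes share 40.2% of the MC1R exon bases on the same strand, so its reads could be split. MLANA was low, at 0 and 4 counts in control. Only 2 of 10 leukocyte markers were in the table, LYZ and CD68, at a summed 5.24 to 6.69 CPM in control and 2.67 to 5.11 CPM after knockdown, and defining genes such as PTPRC, CD3E and CD14 were not found there. The 2 endothelial markers found of 5 summed to 0.771 to 2.95 CPM over all libraries. Of 6 fibroblast markers the 2 found, COL1A1 and LUM, summed to 2.70 to 3.44 CPM in control and 8.89 to 23.0 CPM after knockdown, LUM being called higher with each EA1 siRNA. Whether any of these shifts has a part in the ISG changes was not tested.

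The transcription factors of the response moved in opposite directions. STAT2, the subunit that gives ISGF3 its activating domain (chr12:56341597-56360203, hg38), was at 165 and 148 CPM in control, 314 and 302 CPM with EA1 siRNA 1, and 272 and 279 CPM with EA1 siRNA 2. All 4 knockdown libraries lay far above both controls. The rise was 1.97-fold with EA1 siRNA 1 (log2FC 0.98, SE 0.10, edgeR adjusted p = 1.73e-05) and 1.76-fold with EA1 siRNA 2 (log2FC 0.81, SE 0.10, edgeR adjusted p = 8.41e-05). IRF7, the factor that amplifies interferon production, went the other way, from 16.3 and 13.9 CPM to 5.12 and 3.95 CPM with EA1 siRNA 1 and 4.98 and 5.34 CPM with EA1 siRNA 2. Its log2FC was -1.72 (SE 0.27, edgeR adjusted p = 3.64e-04) and -1.54 (SE 0.27, edgeR adjusted p = 8.68e-04).

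IRF9, the DNA-binding partner of STAT2, was at 10.5 and 10.5 CPM in control, 8.82 and 5.43 CPM with EA1 siRNA 1 and 5.34 and 6.18 CPM with EA1 siRNA 2. Every knockdown library was below both controls, but only EA1 siRNA 2 passed the test (log2FC -0.86, SE 0.30, edgeR adjusted p = 0.0399), and leaving out control replicate 1, control replicate 2 or EA1 siRNA 2 replicate 1 ended that call (edgeR adjusted p = 0.112, 0.109 and 0.116). With EA1 siRNA 1 its log2FC was -0.55 (edgeR adjusted p = 0.153). About 23.9% of its exon bases are shared with another gene on the same strand, and reads there could be split. IRF1, the factor induced by interferon gamma, had only 15 and 8 counts in control, 9 and 4 counts with EA1 siRNA 1 and 0 and 2 counts with EA1 siRNA 2.

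Of the nucleic acid sensors, IFIH1 (MDA5), a sensor of long double-stranded RNA, was the 1 member called lower with each EA1 siRNA. It was at 36.2 and 35.9 CPM in control, 22.04 and 22.6 CPM with EA1 siRNA 1 and 26.4 and 27.4 CPM with EA1 siRNA 2. The groups did not overlap, with a log2FC of -0.69 (SE 0.15, edgeR adjusted p = 2.69e-03) and -0.42 (SE 0.14, edgeR adjusted p = 0.0377). The call with EA1 siRNA 2 was lost without any 1 of 5 libraries (control replicate 1 or 2, EA1 siRNA 1 replicate 1, EA1 siRNA 2 replicate 1 or 2), with log2FC between -0.48 and -0.41 and an edgeR adjusted p of 0.0578 to 0.123. DHX58 (LGP2), a regulator of the other RNA sensors, was at 14.1 and 11.1 CPM in control and 8.37 and 7.44 CPM with EA1 siRNA 2 (log2FC -0.67, edgeR adjusted p = 0.0513), and with the replicate number as a block that adjusted p was 0.0414. The DNA sensor IFI16 did not pass with EA1 siRNA 1 (log2FC -0.11) or EA1 siRNA 2 (log2FC 0.14). DDX58 (RIG-I), the sensor of RNA with 5′ triphosphate ends, had 9 and 9 counts in control, 6 and 7 counts with EA1 siRNA 1 and 0 and 2 counts with EA1 siRNA 2. Another gene shares 43.2% of the DDX58 exon bases on the same strand, so its reads could be split.

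The RNA-directed effectors included OAS3 and ISG20, the members with the smallest adjusted p values in both comparisons. The oligoadenylate synthetases OAS1, OAS2 and OAS3 bind double-stranded RNA and make the short oligoadenylates that switch on RNase L, and all of them are encoded side by side on chromosome 12. OAS3 (chr12:112938051-112976460), whose promoter matches are shown above, was at 103 and 93.9 CPM in control, 25.2 and 26.4 CPM with EA1 siRNA 1, and 24.7 and 26.0 CPM with EA1 siRNA 2. The replicates of each condition were within a few CPM of each other after knockdown, and the log2FC was -1.94 (SE 0.12, edgeR adjusted p = 6.76e-07) and -1.96 (SE 0.12, edgeR adjusted p = 7.81e-07).

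OAS1 was at 37.0 and 35.9 CPM in control, 10.7 and 10.7 CPM with EA1 siRNA 1, and 7.65 and 9.55 CPM with EA1 siRNA 2. OAS2 was at 68.9 and 56.6 CPM in control, 14.4 and 5.60 CPM with EA1 siRNA 1, and 8.90 and 13.8 CPM with EA1 siRNA 2. OAS2 replicates spread more than those of its neighbors, yet no knockdown library came near a control. The log2FC was -1.77 (SE 0.18) and -2.07 (SE 0.19) for OAS1 and -2.62 (SE 0.31) and -2.45 (SE 0.31) for OAS2, each with an edgeR adjusted p of at most 9.83e-05, and OAS2 with EA1 siRNA 1 was at -3.48 without EA1 siRNA 1 replicate 1. OASL, a relative without synthetase activity, had 9 and 10 counts in control against 1, 1, 1 and 0 after knockdown, too few to pass the filter. Its control to knockdown ratio was 8.61 (95% interval 2.08 to 76.2) with EA1 siRNA 1 and 16.7 (2.66 to 696) with EA1 siRNA 2, intervals that cover counting error only.

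ISG20, an exonuclease that degrades single-stranded RNA (chr15:88635670-88656483), was among the members with the highest level per length of exon in control, at a mean of 30.0 RPKM (CPM divided by exon length in kilobases). It fell from 200.7 and 230.5 CPM to 57.7 and 63.2 CPM with EA1 siRNA 1 and 62.1 and 72.4 CPM with EA1 siRNA 2. Its log2FC of -1.84 (SE 0.12, edgeR adjusted p = 8.21e-07) and -1.68 (SE 0.12, edgeR adjusted p = 1.69e-06) was more than 10 times its SE. EIF2AK2 (PKR), the kinase that stops translation on sensing double-stranded RNA, fell less, from 282 and 289 CPM to 173, 165, 165 and 182 CPM over the 4 knockdown libraries. The log2FC was -0.76 (SE 0.10, edgeR adjusted p = 9.79e-05) and -0.72 (SE 0.10, edgeR adjusted p = 1.77e-04).

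The IFIT proteins bind the ends of foreign RNA and hold it out of translation, and their genes lie together on chromosome 10. IFIT1 was at 22.8 and 15.8 CPM in control, 10.4 and 12.02 CPM with EA1 siRNA 1, and 6.05 and 7.44 CPM with EA1 siRNA 2. It fell with each (log2FC -0.78, SE 0.24, edgeR adjusted p = 0.0219, and -1.50, SE 0.25, edgeR adjusted p = 7.75e-04), but the EA1 siRNA 1 call was lost without control replicate 1 (-0.50), EA1 siRNA 1 replicate 1 (-0.67) or EA1 siRNA 1 replicate 2 (-0.91). IFIT3 was called lower with EA1 siRNA 2 only (log2FC -0.62, edgeR adjusted p = 0.0155), from 42.5 and 31.5 CPM to 23.9 and 24.3 CPM, a call lost without control replicate 1 (-0.39, edgeR adjusted p = 0.159). With EA1 siRNA 1 it was at 28.9 and 26.7 CPM (log2FC -0.41, edgeR adjusted p = 0.0765, and 0.0434 with the replicate block). IFIT5 was at 51.0 and 43.8 CPM in control, 38.4 and 34.9 CPM with EA1 siRNA 1 and 34.0 and 38.2 CPM with EA1 siRNA 2. Its log2FC of -0.37 and -0.39 sat at the threshold (edgeR adjusted p = 0.0542 and 0.0478, and 0.0385 with the replicate block for EA1 siRNA 1). The EA1 siRNA 2 call was also lost without any 1 of 4 libraries, control replicate 1 (log2FC -0.28), EA1 siRNA 1 replicate 1 (-0.39), EA1 siRNA 1 replicate 2 (-0.41) or EA1 siRNA 2 replicate 1 (-0.33).

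IFIT2 stood apart from its neighbors, with controls of 14.1 and 5.91 CPM that enclosed all 4 knockdown libraries (9.39 to 12.7 CPM). ADAR, the enzyme that edits adenosine to inosine in double-stranded RNA and is expressed in most cells, had the highest CPM of the members, 436 and 415 CPM in control and 364 to 391 CPM after knockdown. Its log2FC of -0.23 (edgeR adjusted p = 0.0869) and -0.17 (edgeR adjusted p = 0.205) did not pass. In this group 9 of 10 tested members had all 4 knockdown libraries below both controls, against 27.3% of all genes, and 6 were called lower with each EA1 siRNA, against 15.1%.

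**Figure D4:**
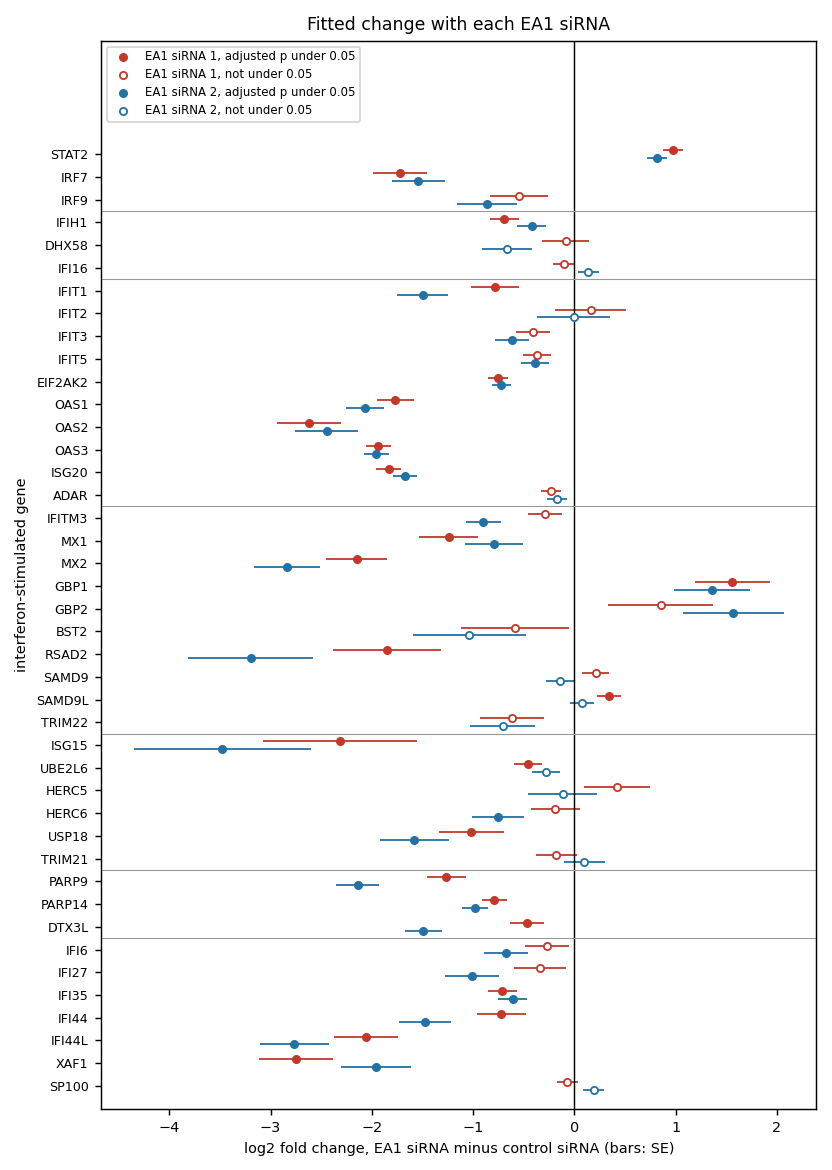
Fitted log2FC of each tested ISG, EA1 siRNA minus control siRNA, with its SE as bars. Filled points have an edgeR adjusted p under 0.05, red points are EA1 siRNA 1, blue points EA1 siRNA 2, and grey lines part the role groups. IDO1 is left out because all its knockdown libraries were at 0. OAS1, OAS2, OAS3, ISG20 and MX2 lie between -1.68 and -2.84 with both, and STAT2 and GBP1 lie right of 0 with both.

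Among virus restriction factors both directions were present. MX2, a dynamin-like GTPase that blocks the nuclear entry of retroviruses, was at 16.6 and 16.97 CPM in control, 2.99 and 4.61 CPM with EA1 siRNA 1, and 1.78 and 2.81 CPM with EA1 siRNA 2. The log2FC was -2.15 (SE 0.30, edgeR adjusted p = 1.79e-04) and -2.84 (SE 0.33, edgeR adjusted p = 5.09e-05). MX1, its relative that acts against influenza viruses, differed between the controls themselves, 12.7 and 23.7 CPM, and was at 7.25 and 8.23 CPM with EA1 siRNA 1 and 9.79 and 11.2 CPM with EA1 siRNA 2. It was called lower with each (log2FC -1.24, edgeR adjusted p = 5.58e-03, and -0.79, edgeR adjusted p = 0.0476). Without the high control, replicate 2, both calls ended (log2FC -0.75, edgeR adjusted p = 0.0842, and -0.31, edgeR adjusted p = 0.496), and the EA1 siRNA 2 call also ended without EA1 siRNA 1 replicate 1, EA1 siRNA 1 replicate 2 or EA1 siRNA 2 replicate 1 (log2FC -0.79, -0.82 and -0.72).

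RSAD2 (viperin), which makes a chain-terminating nucleotide, had 48 and 35 counts in control, 13 and 8 counts with EA1 siRNA 1 and 1 and 7 counts with EA1 siRNA 2. It fell with each (log2FC -1.85, SE 0.53, edgeR adjusted p = 0.0160, and -3.20, SE 0.62, edgeR adjusted p = 1.87e-03), the EA1 siRNA 1 call being lost without control replicate 1 (-1.49), EA1 siRNA 1 replicate 1 (-2.13) or EA1 siRNA 1 replicate 2 (-1.67). With EA1 siRNA 2 the value was -2.56 without its replicate 1 and -4.92 without its replicate 2. IFITM3, which keeps viral envelopes from fusing in endosomes, was at 77.5 and 55.4 CPM in control, 50.5 and 57.8 CPM with EA1 siRNA 1 and 31.3 and 39.5 CPM with EA1 siRNA 2. Only EA1 siRNA 2 was clear of the controls (log2FC -0.90, SE 0.17, edgeR adjusted p = 1.87e-03), and EA1 siRNA 1 did not pass (log2FC -0.29, edgeR adjusted p = 0.190, and 0.0350 without control replicate 2). IFITM1 had 7 and 3 counts in control and 0 in all 4 knockdown libraries. The IFITM genes are similar in sequence, so how their reads were divided is uncertain. Another gene shares 21.1% of the IFITM1 exon bases on the same strand, and reads there could be split.

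The guanylate-binding proteins, GTPases that attack the membranes around intracellular pathogens and are best known as targets of interferon gamma, had higher levels in all 4 knockdown libraries than in either control. GBP1 had 21 and 22 counts in control, 75 and 42 counts with EA1 siRNA 1, and 54 and 42 counts with EA1 siRNA 2, or 3.14 and 2.83 CPM against 10.7, 6.92, 9.61 and 5.896 CPM. It rose 2.95-fold (log2FC 1.56, SE 0.37, edgeR adjusted p = 5.43e-03) and 2.57-fold (log2FC 1.36, SE 0.37, edgeR adjusted p = 0.0142). These calls were lost without EA1 siRNA 1 replicate 1 (log2FC 1.21), and without control replicate 2 (1.25) or EA1 siRNA 2 replicate 1 (0.96), respectively. GBP2, beside it on chromosome 1, had 25 and 9 counts in control, 31 and 26 counts with EA1 siRNA 1 and 52 and 37 counts with EA1 siRNA 2. It was called higher with EA1 siRNA 2 (log2FC 1.57, SE 0.50, edgeR adjusted p = 0.0290), which was lost without control replicate 2 (0.89) or EA1 siRNA 2 replicate 1 (1.09) and was 2.61 without control replicate 1. With EA1 siRNA 1 its log2FC was 0.85 (edgeR adjusted p = 0.218), and 1.89 without control replicate 1 (edgeR adjusted p = 0.0348). Of the GBP2 exon bases, 8.6% are shared with another gene on the same strand.

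SAMD9L and SAMD9 are neighboring genes whose products restrict poxviruses. SAMD9L was at 54.6 and 48.3 CPM in control, 62.4 and 67.9 CPM with EA1 siRNA 1 and 55.4 and 52.9 CPM with EA1 siRNA 2. Its rise with EA1 siRNA 1 was small (log2FC 0.34, SE 0.12, edgeR adjusted p = 0.0381) and was lost without control replicate 1 (0.43), control replicate 2 (0.22), EA1 siRNA 1 replicate 1 (0.40) or EA1 siRNA 1 replicate 2 (0.26). SAMD9, BST2 (tetherin) and TRIM22 were called with neither EA1 siRNA. Their log2FC with EA1 siRNA 1 and EA1 siRNA 2 was 0.21 and -0.14 for SAMD9, -0.58 and -1.04 for BST2, and -0.61 and -0.71 for TRIM22.

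ISG15 is a small ubiquitin-like protein that is attached to other proteins by UBE2L6 and HERC5 and taken off again by USP18. ISG15 itself (chr1:1001138-1014540) was thinly covered in these libraries, with 46 and 18 counts in control, 11 and 1 counts with EA1 siRNA 1 and 2 and 3 counts with EA1 siRNA 2. All 4 knockdown libraries were below both controls. The ratio of summed control to summed knockdown CPM was 4.83 (95% interval 2.59 to 9.84) and 11.3 (4.59 to 35.9), for counting error only, and the fitted log2FC was -2.31 (SE 0.76, edgeR adjusted p = 0.0299) and -3.48 (SE 0.88, edgeR adjusted p = 8.98e-03). Both calls were lost without control replicate 1 (log2FC -1.35, edgeR adjusted p = 0.339, and -2.51, edgeR adjusted p = 0.120), and the EA1 siRNA 1 call also without EA1 siRNA 1 replicate 2 (-1.55, edgeR adjusted p = 0.188). The fits without control replicate 2 gave -2.94 and -4.10, and that without EA1 siRNA 1 replicate 1 gave -4.64 for EA1 siRNA 1.

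USP18, which also damps signaling at the interferon receptor, was at 10.9 and 9.51 CPM in control, 5.12 and 4.94 CPM with EA1 siRNA 1 and 2.31 and 4.35 CPM with EA1 siRNA 2. It fell with each (log2FC -1.02, SE 0.32, edgeR adjusted p = 0.0263, and -1.58, SE 0.34, edgeR adjusted p = 3.60e-03), although the EA1 siRNA 1 call did not survive the loss of control replicate 1 (-0.92), control replicate 2 (-1.15), EA1 siRNA 1 replicate 1 (-1.04) or EA1 siRNA 1 replicate 2 (-1.01). UBE2L6, the conjugating enzyme, was called lower with EA1 siRNA 1 only (49.8 and 42.8 CPM in control, 33.9 and 33.6 CPM with EA1 siRNA 1, log2FC -0.46, edgeR adjusted p = 0.0217), a call lost without control replicate 1 (-0.35), EA1 siRNA 1 replicate 1 (-0.46) or EA1 siRNA 1 replicate 2 (-0.47). With EA1 siRNA 2 it was at 40.6 and 35.7 CPM (log2FC -0.28, edgeR adjusted p = 0.136). HERC6, a relative of the ligase HERC5, was at 14.5 and 11.8 CPM in control, 12.9 and 10.1 CPM with EA1 siRNA 1 and 6.76 and 8.70 CPM with EA1 siRNA 2. Only EA1 siRNA 2 was called (log2FC -0.75, edgeR adjusted p = 0.0368), and not without control replicate 1 (-0.60) or EA1 siRNA 2 replicate 1 (-0.61). HERC5 and TRIM21, a cytosolic antibody receptor and ubiquitin ligase, were called with neither EA1 siRNA, with log2FC of 0.42 and -0.12 for HERC5 and -0.18 and 0.10 for TRIM21.

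The ADP-ribosylation genes PARP9, PARP14 and DTX3L were called lower with each EA1 siRNA, 3 of 3, against 15.1% of all genes. PARP9 and DTX3L form a heterodimer that modifies histones and ubiquitin, and their genes share the bidirectional promoter shown above. PARP9 was at 30.1 and 35.9 CPM in control, 13.9 and 13.5 CPM with EA1 siRNA 1, and 6.23 and 8.56 CPM with EA1 siRNA 2. DTX3L was at 43.4 and 49.9 CPM in control, 34.6 and 32.8 CPM with EA1 siRNA 1, and 13.5 and 19.4 CPM with EA1 siRNA 2. In both genes the 3 conditions did not overlap, with EA1 siRNA 2 the lowest.

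PARP9 fell by 1.27 (SE 0.19, edgeR adjusted p = 3.20e-04) and by 2.14 on the log2 scale (SE 0.21, edgeR adjusted p = 1.58e-05). DTX3L had a log2FC of -0.47 (SE 0.17, edgeR adjusted p = 0.0432) and -1.49 (SE 0.18, edgeR adjusted p = 7.13e-05), the EA1 siRNA 1 call ending without control replicate 1 (-0.57), control replicate 2 (-0.40), EA1 siRNA 1 replicate 1 (-0.51) or EA1 siRNA 1 replicate 2 (-0.45). DTX3L was the 1 member that differed between the EA1 siRNAs (log2FC of EA1 siRNA 1 minus EA1 siRNA 2 1.02, SE 0.18, edgeR adjusted p = 0.0169), where 2.24% of all genes differed, and this call was lost without EA1 siRNA 1 replicate 1 (0.98, edgeR adjusted p = 0.105) or EA1 siRNA 1 replicate 2 (1.06, edgeR adjusted p = 0.162). For PARP9 that difference was 0.88 (SE 0.22, edgeR adjusted p = 0.0695, and 0.0255 with the replicate block). A small part of the exon bases of each, 2.41% of DTX3L and 1.56% of PARP9, overlaps the other gene on the opposite strand. PARP14, a mono-ADP-ribosyltransferase on the same chromosome, fell from 119 and 119.6 CPM to 77.4 and 60.1 CPM with EA1 siRNA 1 (log2FC -0.79, SE 0.13) and 62.7 and 58.1 CPM with EA1 siRNA 2 (log2FC -0.98, SE 0.13).

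**Figure D5:**
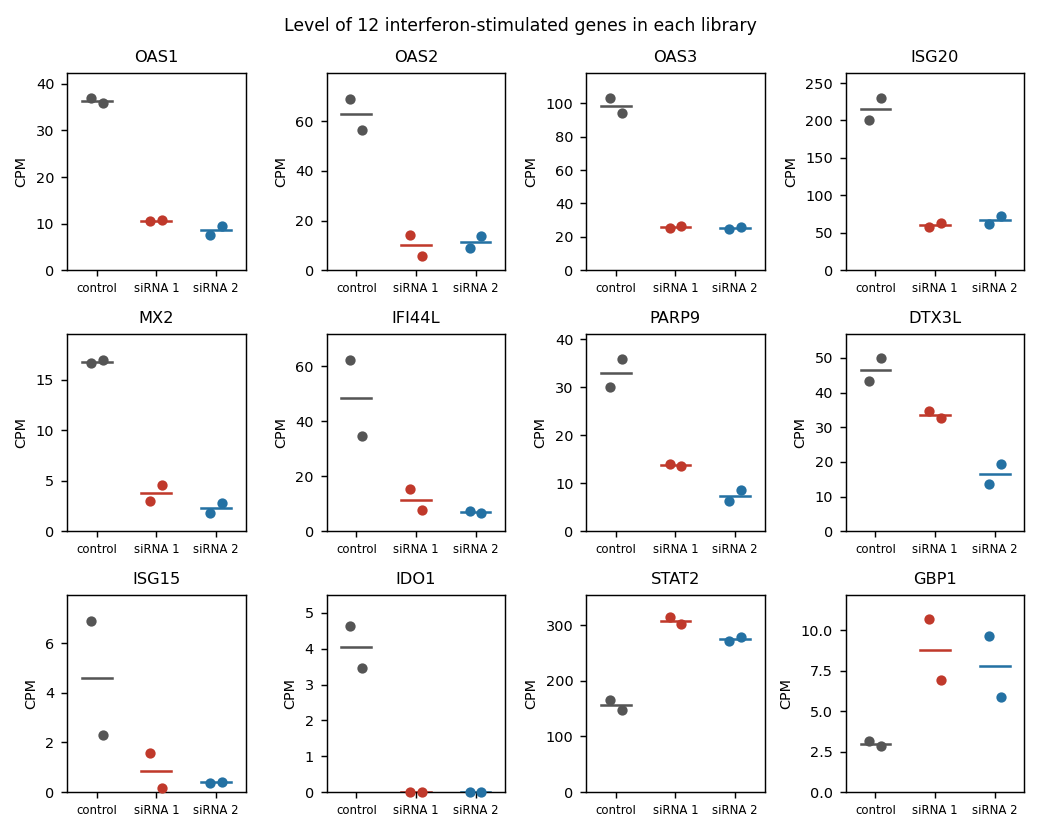
CPM (y axes, from 0) of 12 ISGs in each library, with control siRNA in grey, EA1 siRNA 1 in red, EA1 siRNA 2 in blue and a bar at the mean of 2 libraries. In 10 panels both knockdown groups lie below the controls, with IDO1 at 0 in all 4 knockdown libraries, and STAT2 and GBP1 lie above. DTX3L is the panel in which the EA1 siRNAs differ by the test.

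Of 7 interferon-inducible genes of less settled function, IFI44L, IFI44, XAF1 and IFI35 fell with each EA1 siRNA, 4 of 7, against 15.1% of all genes. IFI44L (chr1:78619902-78646145) was at 62.4 and 34.6 CPM in control, 15.4 and 7.58 CPM with EA1 siRNA 1, and 7.48 and 6.74 CPM with EA1 siRNA 2. The controls were spread, but the lower of them was still above every knockdown library, and the log2FC was -2.06 (SE 0.32, edgeR adjusted p = 3.51e-04) and -2.77 (SE 0.34, edgeR adjusted p = 8.57e-05), the former being -2.67 without EA1 siRNA 1 replicate 1. IFI44, next to it, was at 18.6 and 13.4 CPM in control, 9.10 and 10.2 CPM with EA1 siRNA 1 and 5.34 and 6.04 CPM with EA1 siRNA 2. Its log2FC was -0.72 (SE 0.24, edgeR adjusted p = 0.0346) and -1.48 (SE 0.26, edgeR adjusted p = 0.00100). The EA1 siRNA 1 call for IFI44 was lost without control replicate 1 (-0.47), EA1 siRNA 1 replicate 1 (-0.64) or EA1 siRNA 1 replicate 2 (-0.83).

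XAF1, a proapoptotic binding partner of XIAP, was at 22.2 and 20.96 CPM in control, 3.84 and 2.47 CPM with EA1 siRNA 1, and 3.03 and 7.72 CPM with EA1 siRNA 2. The log2FC was -2.75 (SE 0.37, edgeR adjusted p = 1.26e-04) and -1.96 (SE 0.34, edgeR adjusted p = 9.70e-04), the latter being -2.86 without EA1 siRNA 2 replicate 2. An antisense gene covers 38.3% of the XAF1 exon bases, and without knowing the strand setting of the counting its reads cannot be told apart from those of XAF1. IFI35 fell from 43.7 and 43.97 CPM to 28.3, 25.2, 30.3 and 27.2 CPM (log2FC -0.71, SE 0.14, and -0.61, SE 0.14).

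The genes of the small hydrophobic proteins IFI6 and IFI27 were called lower with EA1 siRNA 2 alone. IFI6 was at 89.5 and 60.4 CPM in control, 75.4 and 48.3 CPM with EA1 siRNA 1 and 41.8 and 51.4 CPM with EA1 siRNA 2 (log2FC with EA1 siRNA 2 -0.68, edgeR adjusted p = 0.0314). IFI27 was at 84.9 and 54.4 CPM in control, 65.1 and 43.97 CPM with EA1 siRNA 1 and 24.7 and 43.2 CPM with EA1 siRNA 2 (log2FC with EA1 siRNA 2 -1.01, edgeR adjusted p = 0.0117). The EA1 siRNA 1 libraries of both genes overlapped the controls. Both EA1 siRNA 2 calls were lost without control replicate 1 (log2FC -0.37 and -0.66), and that of IFI6 also without EA1 siRNA 2 replicate 1 (-0.56). Another gene shares 23.1% of the IFI6 exon bases on the same strand, so its reads could be split. SP100, a component of nuclear bodies, was called with neither (log2FC -0.07 and 0.19).

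IDO1, the enzyme that starts tryptophan breakdown and starves both pathogens and T cells of it, had 31 and 27 counts in control and 0 in each of the 4 knockdown libraries. Against a floor of 3 counts in each library, IDO1 was at least 8.81-fold lower with EA1 siRNA 1 and at least 8.49-fold lower with EA1 siRNA 2. The edgeR adjusted p was 5.37e-04 and 6.71e-04, and the fitted log2FC is not a bound because it depends on how zeros are handled.

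Across all settings tried, 14 members kept their call with each EA1 siRNA. Of these, 13 were lower, EIF2AK2, IDO1, IFI35, IFI44L, IRF7, ISG20, MX2, OAS1, OAS2, OAS3, PARP14, PARP9 and XAF1, and the other was STAT2, which was higher. DESeq2 in place of edgeR ended the EA1 siRNA 1 calls of IFIT1, SAMD9L, UBE2L6, USP18, DTX3L and IFI44 (DESeq2 adjusted p of 0.0623 to 0.185). It also ended the EA1 siRNA 2 calls of IRF9, IFIH1, IFIT5, MX1, HERC6 and IFI27 (DESeq2 adjusted p of 0.0810 to 0.150). With edgeR on only the 4 libraries compared, the EA1 siRNA 2 calls of IFIH1, IFIT5, MX1 and HERC6 were lost as well (edgeR adjusted p of 0.0524 to 0.0718). In that fit ADAR and IFIT5 gained a call with EA1 siRNA 1 (edgeR adjusted p = 0.0389 and 0.0319). RLE factors gained calls for IFIT5 with EA1 siRNA 1 and DHX58 with EA1 siRNA 2 (edgeR adjusted p = 0.0443 and 0.0484). Without a filter on low counts, SAMD9L with EA1 siRNA 1 and IFIT5 with EA1 siRNA 2 lost their calls (edgeR adjusted p = 0.0524 and 0.0561). In that fit, IRF1 (log2FC -3.24, edgeR adjusted p = 0.0368) and OASL (log2FC -3.76, edgeR adjusted p = 0.0448) were called lower with EA1 siRNA 2, on few counts. Neither was called with EA1 siRNA 1, and DDX58 and IFITM1 were not called with either.

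The machinery that makes, receives and relays interferon was read from a list of 43 other genes, of which 30 were in the table and 28 were tested. With EA1 siRNA 1, 8 of the 28 were called lower and 2 higher, and with EA1 siRNA 2, 7 lower and 2 higher, beside 20.3% and 19.9% of all genes called lower and higher with the former and 18.2% and 18.5% with the latter. These genes were not refitted with single libraries left out. None of the 10 interferon genes listed, among them IFNB1, IFNA1, IFNG and IFNL1, was found in the table, which lists no gene whose highest library is under 6 counts. The receptor chains IFNAR1 and IFNGR2 were not called, whereas IFNAR2, the chain that holds STAT2, fell from 18.3 and 20.2 CPM to 10.7, 13.0, 10.9 and 12.5 CPM (log2FC -0.70, edgeR adjusted p = 0.0165, and -0.71, edgeR adjusted p = 0.0171). Of the IFNAR2 exon bases, 14.7% are shared with another gene on the same strand and 13% overlap one on the opposite strand. Reads there could be split. IFNGR1 fell with EA1 siRNA 1 only (log2FC -0.60, edgeR adjusted p = 0.0114).

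The kinases JAK1, JAK2 and TYK2 were not called, with log2FC between -0.05 and 0.26, JAK1 being nearest to the threshold (edgeR adjusted p = 0.0580 and 0.0558). STAT3 fell with EA1 siRNA 2 (log2FC -0.37, edgeR adjusted p = 0.0199).

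Upstream, TICAM1 (TRIF), the adaptor of TLR3, fell from 33.7 and 33.8 CPM to 12.7 and 16.5 CPM with EA1 siRNA 1 and 5.70 and 9.55 CPM with EA1 siRNA 2. Its log2FC was -1.22 (SE 0.22, edgeR adjusted p = 9.96e-04) and -2.12 (SE 0.24, edgeR adjusted p = 4.08e-05). TLR3 (log2FC -0.58) and TRAF3 (-0.67) were called lower with EA1 siRNA 1, TRIM25 (-0.30) with EA1 siRNA 2, and NFKB1 rose with each (0.58 and 0.61). MAVS, TBK1, IRF3, STING1, TRAF6 and RELA were not called.

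Of the negative regulators, SOCS3, an inhibitor of JAK signaling, fell from 25.2 and 15.6 CPM to 6.54 and 8.23 CPM with EA1 siRNA 1 and 4.81 and 4.77 CPM with EA1 siRNA 2 (log2FC -1.46, SE 0.28, edgeR adjusted p = 1.38e-03, and -2.08, SE 0.29, edgeR adjusted p = 2.22e-04). SOCS1, its relative, was higher instead, at 11.1 and 11.7 CPM in control and 15.9, 21.2, 20.7 and 14.7 CPM after knockdown, and passed with EA1 siRNA 1 (log2FC 0.70, edgeR adjusted p = 0.0305) but not EA1 siRNA 2 (log2FC 0.62, edgeR adjusted p = 0.0541). TRIM27 and TRIM28 fell with each, with log2FC between -0.66 and -0.46, and PTPN1 rose with EA1 siRNA 2 (0.61). PIAS1, PTPN2 and IRF2 were not called, nor was the receptor chain IL10RB, and IKBKE and PTPN6 had too few counts to be tested.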

How the data were processed

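The members and gene lists were chosen with earlier results of these data known, and no list is independent evidence of its direction. Per the labels, SU-CCS-1 RNA was made into TruSeq Stranded mRNA libraries. The methods give transfection for 48 h with 5 pmol of siRNA per well, and name 1 EA1 siRNA where the labels list 2. The authors aligned reads to hg38 with BWA-MEM 0.7.10, counted them with featureCounts 1.6.3 and deposited raw counts per gene. The annotation and strand setting were not given in the sources used here.

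The deposited counts were tested with edgeR 4.0.16 in R 4.3.3. Genes were kept by filterByExpr (minimum count 10, minimum total 15), scaled by TMM and fitted by quasi-likelihood over 3 conditions of 2 libraries. Every ISG in the table was named, by role. 1 pathway gene was left out of the lists and is not reported here. Adjusted p is Benjamini-Hochberg over all genes tested, and SE is the log2FC divided by the square root of F. CPM uses TMM-scaled library sizes, and RPKM divides it by the summed exon length in GENCODE 44, which also gave gene coordinates. Promoters came from RefSeq (GRCh38.p14), matched by symbol or synonym. Same-numbered replicates deviated together in all 3 pairs of conditions (r = 0.13, 0.199 and 0.144, across genes). The numbers were therefore used to pair the libraries in the replicate block, which was an alternative only. The main calls, SE and adjusted p are from the fit without pairing. Alternatives were no filter, RLE factors, the replicate block, DESeq2 1.42.0, the 4 libraries compared alone, and each library left out. On simulated counts of EA1 siRNA 1 against control, 194 of 200 changed genes were recovered among 14158 tested, with 8 false calls. The recovered genes were 94 of 100 changed 2-fold and 100 of 100 changed 4-fold. Changed genes were drawn only from those with more than 200 counts over all libraries, and every gene was given the same spread. Far fewer genes changed than were called in the data, so these rates do not carry over to the ISG calls. Members with fewer counts, such as IDO1, ISG15 and RSAD2, were outside that range.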

Additional observations from a re-analysis of the deposited data

Results flagged for a closer look

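DTX3L was flagged because its level differed between the EA1 siRNAs by a test of the difference itself. It was 1 of 43 tested members (2.33%), near the 2.24% of all genes tested that differed. Its log2 fold change of EA1 siRNA 1 minus EA1 siRNA 2 was 1.02 (edgeR adjusted p = 0.0169). DTX3L was lower in both EA1 siRNA 2 libraries (13.5 and 19.4 CPM) than in both EA1 siRNA 1 libraries (34.6 and 32.8 CPM). The call was lost without EA1 siRNA 1 replicate 1 (log2 fold change 0.98) or EA1 siRNA 1 replicate 2 (1.06). Groups of 2 libraries are too small to say which library of a group is outlying.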

How the results depend on the processing

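The counts of ISGs called lower stayed within 1.5 times of those reported under every alternative, from 15 to 25 with EA1 siRNA 1 and from 20 to 29 with EA1 siRNA 2. The counts called higher ranged from 1 to 3 with each EA1 siRNA. The number of ISGs that differed between the EA1 siRNAs was 2 under the replicate block and ranged from 0 to 4 when 1 library was left out. The block otherwise changed calls only for DHX58 with EA1 siRNA 2, and IFIT3 and IFIT5 with EA1 siRNA 1, all of which gained one. Leaving out a library leaves 1 in its group, which is then assumed to vary like the others. Signs turned only for log2 fold changes that had not been called, and the cause was not tested. With 1 library left out, EA1 siRNA 1 values ranged from -0.28 to 0.09 for DHX58, -0.38 to 0.90 for IFIT2, -0.63 to 0.04 for IFI6 and -0.66 to 0.01 for IFI27, and EA1 siRNA 2 values from -0.55 to 0.73 for IFIT2, -0.05 to 0.16 for SAMD9L, -0.42 to 0.26 for HERC5 and -0.05 to 0.18 for TRIM21. The block turned IFIT2 to 0.06 with EA1 siRNA 2. DESeq2 called 17 ISGs lower with EA1 siRNA 1 and 22 with EA1 siRNA 2. RLE factors moved the median of all genes from 0.024 to 0.005 and from 0 to -0.011. IRF1, DDX58, OASL and IFITM1 had 15 counts or fewer in every library, so depth is a limit. Part of the DDX58 and IFITM1 exon bases, 43.2% and 21.1%, is shared with other genes on the same strand, so reads there could also be split.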
